A study of Rattus norvegicus with 9 samples.

Results

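Mitochondrial ribosomal protein genes, with symbols that start with Mrpl or Mrps and a number, were measured in RNA of severed rat dendrites. They were taken by symbol from the gene table of the array, which gave 73 genes on 97 probe sets among 14217 genes in all. Where several probe sets named a gene, their median was used. The RNA came from hippocampal neurons of Sprague-Dawley rats, taken at embryonic day 19 and grown for 14 days in primary culture. Dendrites were cut from their cell bodies with glass pipettes and pooled across many cells, and each pool was amplified by repeated in vitro transcription and hybridised to 1 Affymetrix rat array. The 9 arrays form a series of pools of 100, 200 and 400 dendrites with 3 biological replicates each, and the labels name no treatment and no genetic change. The replicates are called biological in the labels, which do not say whether they came from separate cultures, so p-values measure the spread between these pools. Axons could not be told from dendrites by shape when the neurites were collected. The authors also state that RNA of cell bodies may have contaminated their dendrite samples. Since each array reports a pool, fewer neurites of a kind and less RNA per neurite cannot be told apart.

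Mitochondria carry ribosomes of their own, which translate the few messages of mitochondrial DNA into core subunits of the respiratory chain and of ATP synthase. All proteins of these ribosomes are encoded in the nucleus, made in the cytosol and imported. Many descend from bacterial ribosomal proteins, while others were added in the mitochondrial lineage. Neurons depend on oxidative phosphorylation, and their mitochondria travel far into dendrites and axons, away from the nucleus. By their place in the mammalian mitoribosome, 48 of the 73 genes belong to the large subunit, which joins amino acids, and 25 to the small subunit, which reads the message. Symbols and places differ for Mrps30 and Mrps18a, whose products sit in the large subunit as mL65 and mL66. By the names of their sites, 42 of the products hold the place of a bacterial ribosomal protein, and 31 hold a place named for mitochondrial ribosomes. The 31 include Mrps18a and Mrps18b, although both are relatives of bacterial S18.

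The DNA in front of these genes is shown first, because several of these genes share short sequences there. RefSeq windows of assembly GRCr8, from 250 bases before to 50 bases after the annotated start, were matched by gene ID to 59 of the 73 genes, and 19005 protein-coding genes had such a window. The letters AAGATGGC, the core of the motif bound by YY1, a zinc finger transcription factor, occurred on either strand in 14 of 59 windows (23.7%), against 3.92% of all windows. They reached past the start site in 11 of the 14, against 429 of the 745 windows of all genes that hold them. The stretch around the letters (in capitals) is printed for all 14, from the farthest upstream to the farthest downstream. Each stretch reads 5′ to 3′ along the gene, and the number is the place of the first capital counted from 1 at the start site, with negative numbers before it.
Mrpl32 (chr17:55260420-55260449, plus strand, -220): aaccgcgttctGCCATCTTtacccggaaag
Mrpl48 (chr1:164351535-164351564, minus strand, -177): actcggtaacaAAGATGGCaactaatactg
Mrpl36 (chr1:31795119-31795148, minus strand, -16): cgtgaccctacGCCATCTTtctttctggcg
Mrps6 (chr11:44778653-44778682, plus strand, -3): aagattccatcAAGATGGCagccaagaccc
Mrps18a (chr9:22367362-22367391, minus strand, 1): ggtgtgttcccAAGATGGCggccctcaggg
Mrpl37 (chr5:127074943-127074972, minus strand, 7): ctgcccgggcaAAGATGGCggcgtccaggt
Mrps7 (chr10:101342637-101342666, plus strand, 7): tgatagcggccAAGATGGCtgcccccgcac
Mrpl49 (chr1:212779293-212779322, minus strand, 17): ttggaggagcaAAGATGGCagcaaatgtat
Mrps30 (chr2:52195868-52195897, minus strand, 19): cgcggaggacaAAGATGGCggctgccaggt
Mrpl42 (chr7:32028485-32028514, minus strand, 20): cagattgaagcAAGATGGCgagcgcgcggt
Mrpl46 (chr1:142116988-142117017, minus strand, 25): gggaagacggaAAGATGGCggcgcccatag
Mrpl50 (chr5:68668043-68668072, minus strand, 27): ggagcttgtcgAAGATGGCggcgctgtgtg
Mrps18b (chr20:2843023-2843052, plus strand, 29): ggatgtgcgacAAGATGGCtgcctccttgc
Mrps27 (chr2:32474222-32474251, plus strand, 30): tggtacgctccAAGATGGCggcccccatgg

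In 12 of the 14 the letters run in the direction of the gene, and Mrpl32 and Mrpl36 hold the complement GCCATCTT. The letters of Mrpl32 and Mrpl48 lay far upstream, those of Mrpl32 beyond the start of its neighbour Psma2. The members with the letters had a median percentile of signal of 59.0, and those whose window lacks them one of 64.5. A percentile here is the place of a gene's median rank over the 9 arrays among all 14217 genes, with 100 as the highest signal. The other letters searched, on both strands, gave smaller counts or shares near those of all genes. CCGGAAGT, a site for ETS factors, was in 8 of 59 windows (13.6%, against 4.99% of all), and GCGCATGC, a core of the site for NRF1, a regulator of nuclear genes for mitochondria, was in 5 (8.47%, against 3.23%). Those 5, Mrps18b (58.4), Mrpl44 (43.1), Mrpl17 (17.5), Mrpl32 (15.5) and Mrpl22 (13.4), had a median percentile of 17.5, and the members without these letters one of 63.8, which was the widest such gap of the 5 motifs and rests on 5 genes. With and without the letters, the medians were 60.4 and 63.0 for ETS, 60.4 and 64.4 for Sp1 and 46.6 and 62.5 for the TATA box. GGGCGG, bound by Sp1, was in 30 (50.8%, against 43.1%), and the TATA box TATAAA was in 7 (11.9%, against 13.1%). A match is a description of letters and not evidence that a factor binds. The letters AAGATGGC also hold the codon ATG, and whether a match lies at a translation start was not tested.

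Head-to-head gene pairs, in which neighbours on opposite strands start within 1000 bases of each other, were common among these genes. They held 17 of the 59 members (28.8%), against 1325 of 19005 genes (6.97%). Of these members, 14 had a partner measured here. Mrps11 and Mrpl46, which start 234 bases apart, were partners of each other. The DNA between 3 such pairs, and in front of Mrpl53, the member of largest spread over the arrays, is printed to show how unlike these stretches are. Capitals mark the letters named above.
Mrps11 and Mrpl46 (chr1:142117031-142117263, plus strand): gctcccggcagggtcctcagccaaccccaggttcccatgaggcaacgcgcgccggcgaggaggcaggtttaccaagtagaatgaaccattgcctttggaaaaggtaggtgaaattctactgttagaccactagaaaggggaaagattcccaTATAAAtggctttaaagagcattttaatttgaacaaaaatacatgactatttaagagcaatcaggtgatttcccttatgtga
Mrpl47 and Ndufb5 (chr2:117447362-117447604, minus strand): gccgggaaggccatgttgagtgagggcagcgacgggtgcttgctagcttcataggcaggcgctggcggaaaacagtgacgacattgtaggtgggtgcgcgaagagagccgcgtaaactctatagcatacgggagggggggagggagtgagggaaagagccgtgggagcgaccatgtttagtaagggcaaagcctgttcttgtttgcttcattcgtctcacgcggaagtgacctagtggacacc
Mrpl32 and Psma2 (chr17:55260442-55260650, plus strand): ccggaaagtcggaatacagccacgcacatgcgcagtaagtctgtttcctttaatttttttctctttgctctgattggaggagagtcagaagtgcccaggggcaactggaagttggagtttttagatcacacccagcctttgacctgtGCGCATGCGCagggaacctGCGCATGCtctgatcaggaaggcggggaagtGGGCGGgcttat
Mrpl53 (chr4:117172793-117173042, plus strand): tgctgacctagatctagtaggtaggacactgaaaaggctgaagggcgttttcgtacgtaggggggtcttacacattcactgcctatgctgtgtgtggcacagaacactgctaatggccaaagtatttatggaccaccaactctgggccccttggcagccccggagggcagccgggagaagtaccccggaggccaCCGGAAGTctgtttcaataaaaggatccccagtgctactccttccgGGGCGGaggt

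The stretch between Mrps11 and Mrpl46 held the letters TATAAA. None of the letters searched occurred between Mrpl47 and Ndufb5, a subunit gene of respiratory complex I. The 209 bases between Mrpl32 and Psma2, a proteasome subunit gene, held the NRF1 letters at 2 places, the first of which matches on both strands with overlap, and 1 Sp1 match. The stretch upstream of Mrpl53 held an ETS match and an Sp1 match. Over the 13 pairs with both genes measured, partners were within 10 percentiles of each other in 5, and the median gap was 19.7 percentiles. Mrps11 was at percentile 64.4 and Mrpl46 at 37.4. Mrpl32 was at 15.5 with Psma2 at 77.5, and Mrpl47 at 1.19 with Ndufb5 at 96.9, the widest gap. Mrpl18 at 91.5 and its neighbour Tcp1, a chaperonin subunit gene, at 85.6 were both high. Mrpl51 at 6.05 and its neighbour Ncapd2, a condensin subunit gene, at 3.94 were both low, as were Mrpl30 at 7.77 and Mitd1 at 10.8. Mrpl2 at 32.2 lay close to Klc4 at 32.8, and Mrps27 at 59.7 close to Ptcd2 at 63.3. The ranks of Mrpl51 and Mrps27 depend on how their probe sets are combined. With the brightest probe set of each gene in place of the median, they were at 64.0 and 93.2. Ranks of signal also depend on the affinity of the probes, so they are no measure of the amount of one RNA against another.

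Markers of excitatory neurons ranked high on the 9 arrays. The 7 measured markers of these neurons had a median percentile of 89.9, led by the transcription factor Neurod2 (99.9) and the postsynaptic calmodulin-binding protein gene Nrgn (99.4). Of the dendrite markers, Dlg4, the scaffold PSD-95, was at 98.2, Map2 at 80.3 and Camk2a, an exception, at 26.3. Microglial markers had a median of 25.2 and interneuron markers one of 24.6. Astrocyte markers had one of 62.5 and ran from 1.84 to 91.1, with 4 of 8 above 50. Among them Gfap was at 86.0 and S100b at 91.1. Oligodendrocyte markers had a median of 59.3, with 6 of 7 above 50. Endothelial markers had one of 60.5 and ran from 24.7 to 99.8, with 4 of 6 above 50. Among them Vwf was at 99.8 and Esam at 98.6. Fibroblast markers had a median of 33.2, led by the collagen gene Col1a1 at 82.1. What RNA of other cells adds to the signal of the ribosomal protein genes was not tested. On 2 arrays, replicate 1 of the pools of 100 and replicate 1 of the pools of 400, all 14 probe sets of the bacterial spike-in controls BioB, BioC and BioD were above all of the other 7 arrays, with means of 13.4 and 12.9 log2 units, where the others gave 10.96 to 11.8. Values without both arrays are given beside the differences that they moved most.

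The genes as a group lay a little above the middle of the dendritic signal, and few were among the highest. Their median percentile was 59.7, with the middle 50% of them between 31.6 and 74.7, and 46 of 73 ranked above 50. In the top 5% of genes there were 3 of the 73 (4.11%, where 5% of all genes are by construction): Mrpl41, Mrpl33 and Mrps30. All 3 belong to the large subunit. No detection call was made, so a rank above the middle does not show that an RNA was present. Control probe sets of bacterial genes also spread widely, with 1 dap control at 4.94 to 5.44 and 1 trp control at 8.29 to 9.68 log2 units. Whether RNA for these controls was added is not stated. Signals were above the middle of all genes on every array for 17 of the 73 (23.3%, against 22.3% of all genes), on none for 11 (15.1%, against 21.8%), and on some for 45. Mrpl41, a protein of the large subunit without a bacterial homolog, had log2 signals of 9.98, 9.33 and 10.74 in the pools of 100, 10.50, 10.63 and 10.58 in the pools of 200, and 9.36, 10.61 and 10.61 in the pools of 400 dendrites. The 9 values ran from 9.33 to 10.74, with the lowest in 1 pool each of 100 and 400 dendrites. Mrpl33, a small protein with a bacterial homolog, had 10.32, 10.48 and 10.15 in the pools of 100, 11.04, 10.35 and 10.83 in the pools of 200, and 9.19, 11.08 and 10.80 in the pools of 400 dendrites. Mrps30, the product at mL65, had 10.83, 9.89 and 10.05 in the pools of 100, 10.68, 10.12 and 10.12 in the pools of 200, and 11.38, 10.49 and 10.47 in the pools of 400 dendrites. It stood above percentile 92.5 on every array, while the lowest array of Mrpl41 was at 88.2 and that of Mrpl33 at 86.9. Below these 3 in the large subunit came Mrpl53 at 93.4 and Mrpl55, the counterpart of bacterial L31, at 92.5. On single arrays the top 5% held between 1 and 4 of the 73 genes, and those of the small subunit were absent from it on each array. This holds for the median of the probe sets. With the brightest probe set of each gene instead, the single member in the top 5% was Mrps15, of the small subunit.

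**Figure D1:**
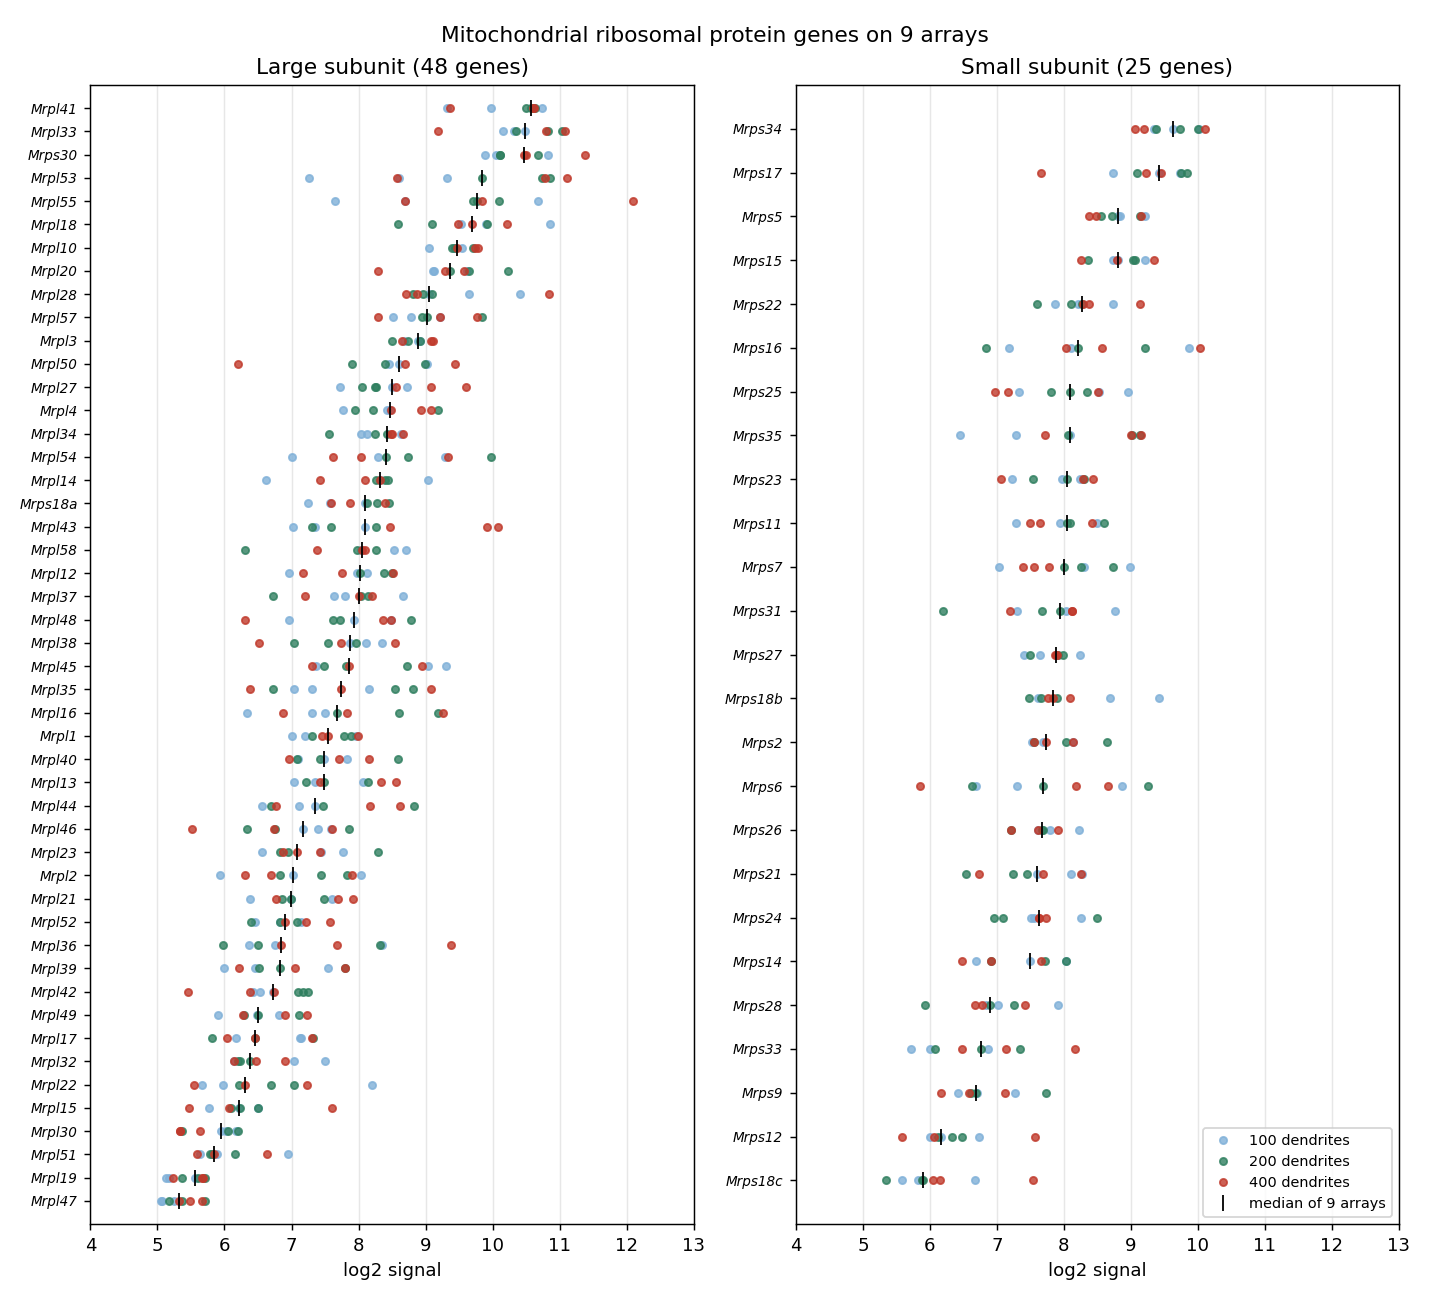
Log2 signal (x axis) of each mitochondrial ribosomal protein gene (rows, ordered by percentile) on 9 arrays, with points for pools of 100, 200 and 400 dendrites and a tick at the median of the 9. The 48 genes of the large subunit reach both the highest and the lowest signals, and the points of the 3 pool sizes overlap in most rows.

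The small subunit was as high in its median, at 59.7, as the large subunit, at 59.5, but spanned a narrower range. Its genes lay between percentiles 7.10 and 91.8, with 19 of 25 above 50, and those of the large subunit between 1.19 and 95.9, with 27 of 48 above 50. The highest of the small subunit was Mrps34, mutated in a form of Leigh syndrome in humans, at 91.8. Its signals were 10.02, 9.63 and 9.35 in the pools of 100, 9.74, 9.38 and 10.01 in the pools of 200, and 9.07, 10.11 and 9.20 in the pools of 400 dendrites. Mrps17 (89.6), Mrps5 (82.8), Mrps15 (82.7) and Mrps22 (70.8) followed. The first 3 of these descend from bacterial S17, S5 and S15, and Mrps22 is mitochondrial in origin. At the low end of the small subunit were Mrps18c (7.1), Mrps12 (11.1), the counterpart of the decoding-site protein S12, Mrps9 (23.4), Mrps33 (24.8) and Mrps28 (28.4). The large subunit ended with Mrpl15 (12.3), Mrpl30 (7.77), Mrpl51 (6.05), Mrpl19 (3.11) and Mrpl47 (1.19). Mrpl47, the counterpart of bacterial L29, gave 5.06, 5.25 and 5.05 in the pools of 100, 5.36, 5.70 and 5.17 in the pools of 200, and 5.32, 5.66 and 5.48 in the pools of 400 dendrites. Mrpl19, the counterpart of L19, ran from 5.13 to 5.70. These 2 genes did not exceed percentile 6.77 on any array. By the kind of place, the 31 products at mitochondrial places had a median percentile of 62.1 and the 42 at bacterial places one of 53.6. Of the 10 at mitochondrial places in the small subunit, Mrps18b among them, 9 ranked above 50.

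Grouped by known places in the large subunit, neighbours in the ribosome did not share a rank. At the exit of the tunnel, where nascent proteins meet the inner membrane, Mrpl45, which tethers the ribosome to that membrane, was at 59, Mrpl44 at 43.1, Mrpl23 at 33.6, Mrpl39 at 26.4, Mrpl17 at 17.5, Mrpl22 at 13.4 and Mrpl47 at 1.19. The first of these was the one above 50. Near the peptidyl transferase centre, Mrpl3 was at 84.2, Mrpl27 at 76.5, Mrpl16 at 53.5 and Mrpl2 at 32.2. In the stalk, which recruits the factors of translation, Mrpl10 was at 90.6 and Mrpl12 at 64.7. In the central protuberance, Mrpl18 was at 91.5, Mrpl58, a peptidyl-tRNA hydrolase that became a ribosomal protein, at 65.3, Mrpl48 at 61.2, Mrpl38 at 60, Mrpl40 at 47.2 and Mrpl46 at 37.4. Genes on both sides of the middle stood in each of these places except the stalk. The places were set together after the values were known, so these are descriptions.

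The 3 relatives of bacterial S18 occupy different sites of the ribosome and did not all rank alike. Mrps18a, in the large subunit, was at percentile 66.8 with 8.10, 7.57 and 7.24 in the pools of 100, 8.13, 8.46 and 8.28 in the pools of 200, and 8.40, 7.87 and 7.59 in the pools of 400 dendrites. Mrps18b, at the site mS40 of the small subunit, was at 58.4 with 9.42, 7.62 and 8.68 in the pools of 100, 7.65, 7.89 and 7.48 in the pools of 200, and 7.76, 7.83 and 8.10 in the pools of 400 dendrites. Mrps18c, in the place of bacterial S18 itself, was at 7.1 with 6.67, 5.83 and 5.59 in the pools of 100, 5.90, 5.88 and 5.35 in the pools of 200, and 7.54, 6.05 and 6.15 in the pools of 400 dendrites. Mrps18a and Mrps18b overlapped, with means of 7.96 and 8.05 over the 9 arrays. Mrps18c was the lowest of the 3 on each of the 9 arrays. The 3 are measured by different probe sets, so these are ranks of signal.

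The other gene groups of mitochondrial translation had lower median percentiles than these 73 genes. The 5 proteins of the same ribosome with other names had a median percentile of 35.9. They were Dap3 (76.8), a GTP-binding protein of the small subunit, Aurkaip1 (57.4), Chchd1 (35.9), Gadd45gip1 (33) and Ptcd3 (30.1). The 14 measured translation factors had a median of 50.5, from Mtfmt (20.6), which formylates the initiator methionine, to Gfm1 (92.9), an elongation factor, and Taco1 (91.9), an activator of cytochrome c oxidase subunit 1 synthesis. The 16 aminoacyl-tRNA synthetases and amidotransferase subunits had a median of 53.8, with Tars2 (93.7) and Wars2 (91.5) the highest and Yars2 (5.59) the lowest. The 23 assembly factors had a median of 42.1, with Tfb1m (95.4), which methylates the small ribosomal RNA, and the pseudouridine synthase Rpusd4 (90.4) the highest and Mterf3 (0.496) the lowest. The 8 genes of mitochondrial transcription and replication had one of 32.8, with Mterf1 (83) and the helicase Twnk (46.4) the highest and Tfam (7.85) the lowest. A larger share of 2 other groups was in the top 5%. Of 77 nuclear genes for oxidative phosphorylation, 19 were in it, with a median percentile of 81.9, and of 48 cytosolic ribosomal protein genes 16 were, with a median of 85.4. The mitochondrially encoded COX1 (99.98) and COX2 (99.97), which these ribosomes translate, were near the top. No test was set on these differences between lists, and their genes differ in probe sets.

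**Figure D2:**
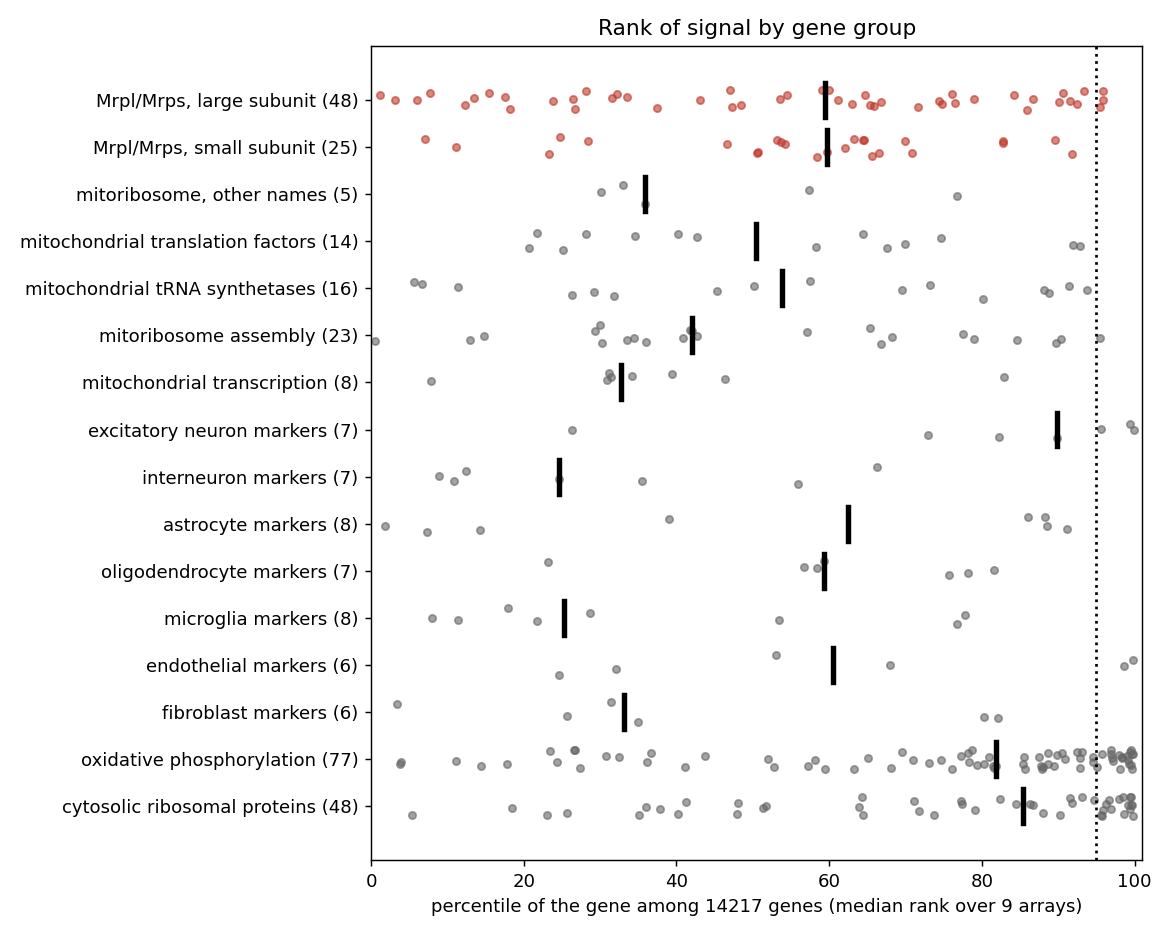
Percentile of each gene by its median rank over 9 arrays (x axis, dotted line at the top 5%) for the 2 subunits (upper rows, red) and other groups and marker lists (grey), with group sizes in parentheses and a bar at the median. Medians of the 2 subunits are at 59.5 and 59.7, and those of oxidative phosphorylation and cytosolic ribosomal proteins at 81.9 and 85.4.

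From array to array the middle of the group stayed between percentiles 50.1 and 66.1. The median percentile of the 73 genes was 59.9, 55.5 and 50.1 in the pools of 100, 60.5, 55.1 and 59.4 in the pools of 200, and 51.9, 66.1 and 53.6 in the pools of 400 dendrites. The highest median, 66.1, was that of a pool of 400 dendrites in which the actin control probe sets also differed most between the 3′ and the 5′ end, by 2.41 log2 units, where the other arrays gave -0.43 to 1.63. For the other 2 controls that array, at 2.42 for GAPDH and 0.78 for hexokinase, was not extreme, with up to 2.99 and 1.15 elsewhere. The fibroblast markers also stood highest on it, with a median percentile of 80.3, against 21.1 to 70.3 on the other arrays. The part of RNA length or of fibroblast RNA in this median was not tested. Single genes were less steady. The median SD of the members over the 9 arrays was 0.563 log2 units, against 0.552 for all genes. Mrpl53 had the largest, 1.33, followed by Mrpl55 with 1.28 and Mrps6, the counterpart of bacterial S6, with 1.15. Mrpl55 gave 10.68, 7.65 and 8.69 in the pools of 100, 10.09, 9.71 and 9.77 in the pools of 200, and 8.70, 12.09 and 9.84 in the pools of 400 dendrites. Its lowest value came from a pool of 100 and its highest from a pool of 400 dendrites, with a range of 4.44 log2 units that was the widest of the 73. Mrps6 gave 8.87, 6.69 and 7.29 in the pools of 100, 9.25, 6.63 and 7.69 in the pools of 200, and 5.85, 8.66 and 8.17 in the pools of 400 dendrites. High and low values of Mrps6 occurred at each pool size. The steadiest were Mrpl3 with an SD of 0.205, Mrpl10 with 0.223 and Mrpl19 with 0.233. The value of Mrpl10 is the median of 2 probe sets, which had larger SDs of 0.518 and 0.608 by themselves. In replicate 1 of the pools of 400 dendrites these probe sets gave 10.98 and 8.49. Mrpl10, the base of the ribosomal stalk, gave 9.55, 9.43 and 9.06 in the pools of 100, 9.44, 9.71 and 9.40 in the pools of 200, and 9.73, 9.46 and 9.79 in the pools of 400 dendrites, and was at percentile 90.6. Mrpl3, whose bacterial counterpart reaches close to the peptidyl transferase centre, gave 8.89, 8.92 and 8.68 in the pools of 100, 8.91, 8.74 and 8.50 in the pools of 200, and 9.11, 8.65 and 9.09 in the pools of 400 dendrites. Both were well above the middle of all genes, while Mrpl19 was near the bottom of the scale.

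The probe sets of 1 gene could lie far apart. Of the 73 genes, 55 were measured by 1 probe set and 18 by several, and in 8 of the 18 the means of the probe sets lay more than 2 log2 units apart. Mrps15 had the largest gap, 5.39, with 1 probe set at 11.54 ± 0.45 (SD, n = 9) and the other at 6.15 ± 0.47. The first was at percentile 98.2 of all probe sets and the second at 12.5. Mrpl51 had 4 probe sets, with means of 8.57, 6.33, 5.71 and 5.27. Mrps27, a pentatricopeptide repeat protein, had 3, with means of 10.53, 7.58 and 7.41. The values of these 3 genes thus turn on the rule that combines probe sets. The brightest probe set was also put in place of the median for all genes. Mrps15 then moved to percentile 97.2, Mrps27 to 93.2 and Mrpl51 to 64.0. Under that rule Mrps15 was the single member in the top 5%, and Mrpl41 was at 92.4, Mrpl33 at 92.2 and Mrps30 at 91.8. At the other end, the probe sets of Mrpl12, the stalk protein, differed by 0.127.

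**Figure D3:**
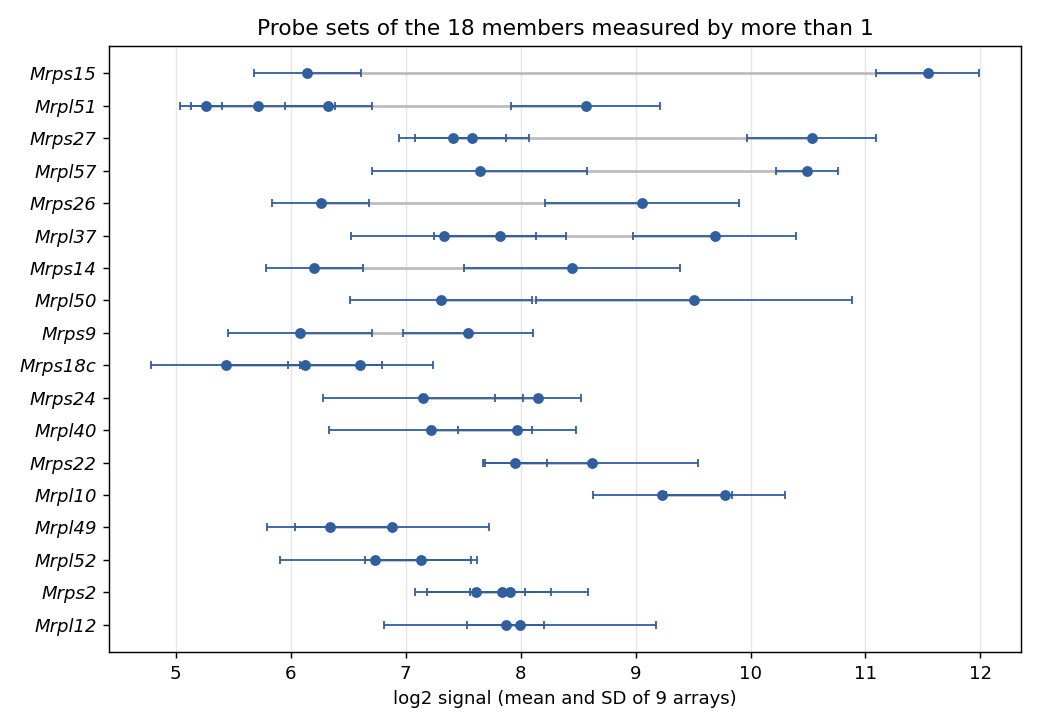
Mean log2 signal (x axis) of each probe set of the 18 genes measured by more than 1, with bars of 1 SD over 9 arrays and a grey line joining the probe sets of a gene. The 2 probe sets of Mrps15 lie 5.39 log2 units apart, and those of Mrpl12 differ by 0.127.

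A pool of 400 dendrites should start from more RNA than one of 100, although the amounts are not given. The comparison of pool sizes asked whether any of these transcripts depended on pool size. Each array received the same amount of amplified RNA and the arrays were equalised, so only shifts of genes relative to others can show. In limma over all 14217 genes, none of the 73 passed an adjusted p of 0.05 in any pairwise comparison or in the slope per doubling of dendrites. Nor did any other gene, so the share called was 0% in each. The comparison of 400 with 100 dendrites was also run on simulated data with the spread of these arrays. It recovered 1 of 50 genes changed by 1 log2 unit, 18 of 50 changed by 2 and 40 of 50 changed by 3. Differences of 1 log2 unit were thus seldom detectable. Genes changed by 1 to 4 log2 units were planted together, which eases the adjustment of p. A lone changed gene would be recovered less often than these counts say. Between 400 and 100 dendrites, 38 members had a higher mean and 35 a lower one, with a median difference of 0.04 log2 units, against 0.02 for all genes. The median standard error of a member was 0.47. In the large subunit 29 of 48 were higher, with a median difference of 0.16, and in the small subunit 9 of 25 were higher, with a median of -0.12. That standard error is of 1 gene and does not measure the spread of a median over genes. The median signal of the 73 members had an SD of 0.19 between pools of the same size. The unadjusted p was under 0.05 for 3 members, Mrpl43, Mrpl53 and Mrps35, all of them higher at 400, 3 of 73 against 2.41% of all genes. Fibroblast markers differed in the same direction, with 5 of 6 higher at 400. Their median difference was 0.50, and the median standard error of 1 such gene was 0.58. The unadjusted p was under 0.05 for 1 of the 6, Col3a1, a fibrillar collagen, at 1.76 ± 0.49 (SE, limma unadjusted p = 0.00397, adjusted p = 0.999). Lum, a proteoglycan of the matrix, was at 2.33 ± 1.13 (SE, limma unadjusted p = 0.0621, adjusted p = 0.999). The median percentile of the fibroblast markers was 46.3, 32.4 and 21.1 in the pools of 100, 29.8, 70.3 and 53.2 in the pools of 200, and 29.4, 80.3 and 62.7 in the pools of 400 dendrites. Without the pool of 400 in which they were highest, the difference was 1.79 for Mrpl43, 1.28 for Mrpl53 and 1.08 for Mrps35. Without both arrays of high spike-in signal, the unadjusted p was under 0.05 for 9 members (against 675 of all 14217 genes) and the adjusted p for none. The groups did not overlap for Mrpl4, Mrpl43 and Mrpl47, which were higher at 400 (3 of 73, against 3.67% of all genes), and for Mrpl30, which was lower (1 of 73, against 2.58% of all genes).

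**Figure D4:**
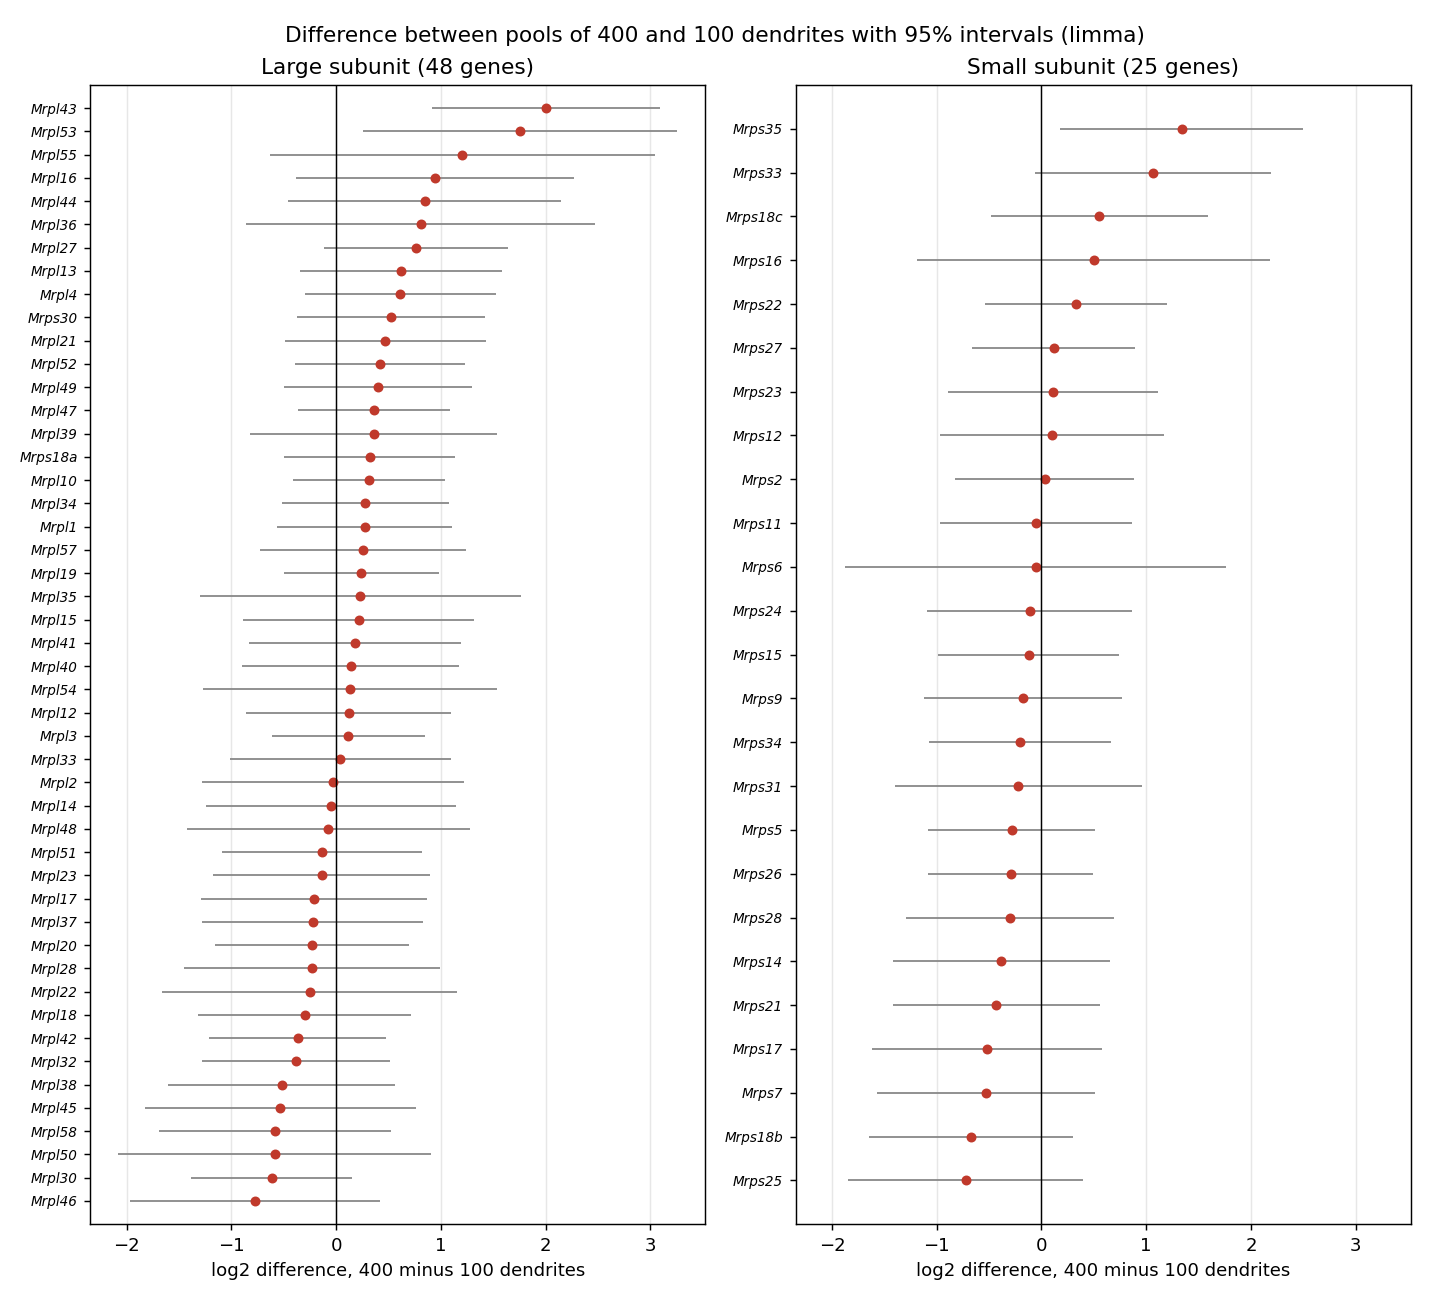
Log2 difference (x axis) of pools of 400 minus pools of 100 dendrites for the 48 genes of the large and the 25 of the small subunit, with 95% intervals from limma (n = 3 arrays each). Intervals of 3 genes, Mrpl43, Mrpl53 and Mrps35, leave out 0, and no gene passed an adjusted p of 0.05.

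Mrpl43, a mitochondrial protein of the large subunit, had the largest difference between 400 and 100 dendrites. Its signals were 7.35, 8.09 and 7.02 in the pools of 100, 7.60, 7.31 and 8.26 in the pools of 200, and 8.47, 9.92 and 10.08 in the pools of 400 dendrites. All 3 pools of 400 lay above the 6 others. The difference between 400 and 100 dendrites was 2.002 ± 0.50 (SE, 95% interval 0.91 to 3.09, limma unadjusted p = 0.00178, adjusted p = 0.999), and that between 400 and 200 was 1.77 ± 0.50 (SE, 95% interval 0.68 to 2.86, limma unadjusted p = 0.00415, adjusted p = 0.999). Under every alternative run, the first of these stayed between 1.71 and 2.51. The adjusted p passed 0.05 under none of them. Mrpl53, a further mitochondrial protein of the large subunit, had 8.61, 7.26 and 9.32 in the pools of 100, 10.86, 9.85 and 10.74 in the pools of 200, and 8.58, 11.10 and 10.79 in the pools of 400 dendrites. The pools of 200 lay above those of 100, while 1 pool of 400 was as low as them. The difference was 1.76 ± 0.69 (SE, 95% interval 0.26 to 3.26, limma unadjusted p = 0.0253, adjusted p = 0.999) between 400 and 100 dendrites, and 2.08 ± 0.69 (SE, 95% interval 0.59 to 3.58, limma unadjusted p = 0.0106, adjusted p = 0.9999) between 200 and 100. Mrps35, a mitochondrial protein of the small subunit, had 6.45, 7.29 and 8.09 in the pools of 100, 8.06, 9.01 and 9.13 in the pools of 200, and 8.996, 9.14 and 7.71 in the pools of 400 dendrites. Its groups overlapped, with a difference of 1.34 ± 0.53 (SE, 95% interval 0.18 to 2.50, limma unadjusted p = 0.0275, adjusted p = 0.999) between 400 and 100 dendrites and 1.45 ± 0.53 (SE, 95% interval 0.29 to 2.62, limma unadjusted p = 0.0184, adjusted p = 0.9999) between 200 and 100. Without a single pool of 100 dendrites, the unadjusted p between 400 and 100 came to 0.118 for Mrpl53 (replicate 2 left out) and to 0.121 for Mrps35 (replicate 1 left out). It was above 0.05 in 3 of the 9 fits that leave out an array for Mrpl53, in 4 for Mrps35 and in 0 for Mrpl43. Without both arrays of high spike-in signal the difference was 2.65 for Mrpl53 and 0.74 for Mrps35.

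On the lower side, the smallest unadjusted p values between 400 and 100 dendrites belonged to Mrpl30, Mrps18b and Mrpl46. Mrpl30, the counterpart of bacterial L30, had 6.17, 6.02 and 5.95 in the pools of 100, 6.20, 6.05 and 5.36 in the pools of 200, and 5.34, 5.34 and 5.63 in the pools of 400 dendrites. Its 3 pools of 400 lay below the 3 of 100, at signals near the bottom of the scale, with a difference of -0.61 ± 0.35 (SE, 95% interval -1.38 to 0.16, limma unadjusted p = 0.108, adjusted p = 0.999). Mrps18b, given above, differed by -0.68 ± 0.45 (SE, 95% interval -1.65 to 0.30, limma unadjusted p = 0.156, adjusted p = 0.999), and its spread lay in the pools of 100. It was -0.25 without replicate 1 of those pools and -1.15 without replicate 2, and -0.19 without both arrays of high spike-in signal. Mrpl46 had 7.17, 7.40 and 7.59 in the pools of 100, 6.33, 6.76 and 7.86 in the pools of 200, and 7.60, 5.51 and 6.74 in the pools of 400 dendrites. Its difference was -0.77 ± 0.55 (SE, 95% interval -1.97 to 0.42, limma unadjusted p = 0.182, adjusted p = 0.999), and it was -0.22 without replicate 2 of the pools of 400, -1.26 without replicate 1 of them and -1.37 without both arrays of high spike-in signal. None of the intervals fitted to all 9 arrays left out 0. The limma unadjusted p was 0.0174 for Mrps18b without replicate 2 of the pools of 100, and 0.0381 and 0.0476 for Mrpl46 in the last 2 of these fits.

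Between 200 and 100 dendrites, 44 members had a higher mean and 29 a lower one, with a median difference of 0.12, against 0.00 for all genes. The unadjusted p was under 0.05 for Mrpl53, Mrps35 and Mrpl16, all higher at 200 (3 of 73, against 3.03% of all genes). The groups did not overlap for Mrpl53, Mrps18a, Mrpl16 and Mrpl42, which were higher (4 of 73, against 4.05% of all genes), and for Mrps21, which was lower (1 of 73, against 3.75% of all genes). Mrpl16, the counterpart of bacterial L16, had 7.30, 6.33 and 7.49 in the pools of 100, 7.69, 8.61 and 9.19 in the pools of 200, and 6.88, 9.26 and 7.82 in the pools of 400 dendrites. The pools of 400 spread across those of both other sizes. The difference was 1.45 ± 0.61 (SE, 95% interval 0.12 to 2.78, limma unadjusted p = 0.0349, adjusted p = 0.9999) between 200 and 100 dendrites. Mrps21, the counterpart of S21, had 8.27, 7.59 and 8.10 in the pools of 100, 6.53, 7.45 and 7.23 in the pools of 200, and 7.69, 6.74 and 8.25 in the pools of 400 dendrites, with a difference of -0.92 ± 0.45 (SE, 95% interval -1.90 to 0.07, limma unadjusted p = 0.0655, adjusted p = 0.9999). Mrpl18, the counterpart of L18, which binds the 5S ribosomal RNA in bacteria, had 9.53, 10.86 and 9.90 in the pools of 100, 9.09, 8.59 and 9.91 in the pools of 200, and 9.48, 9.69 and 10.22 in the pools of 400 dendrites, with a difference of -0.90 ± 0.47 (SE, 95% interval -1.92 to 0.12, limma unadjusted p = 0.0782, adjusted p = 0.9999). Mrps18b differed by -0.90 ± 0.45 (SE, 95% interval -1.87 to 0.08, limma unadjusted p = 0.0677, adjusted p = 0.9999). The intervals of these last 3 included 0. Without replicate 2 of the pools of 100 the difference was -0.52 for Mrpl18, and without replicate 2 of the pools of 200 it was -0.60. For Mrps18b it was -0.47 without replicate 1 of the pools of 100, also when replicate 1 of the pools of 400 was left out with it, and -1.37 without replicate 2 (limma unadjusted p = 0.00669, adjusted p = 0.938). For Mrpl16 the unadjusted p was above 0.05 in 3 of the 9 fits that leave out an array.

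Between 400 and 200 dendrites, 38 members had a higher mean and 35 a lower one, with a median difference of 0.03, against 0.01 for all genes. The unadjusted p was under 0.05 for 3 members (against 2.3% of all genes), with Mrpl43 and Mrpl27 higher and Mrpl42 lower at 400. The groups did not overlap for Mrpl27, Mrpl34, Mrps22, Mrpl43 and Mrps18c, which were higher (5 of 73, against 3.59% of all genes), and for Mrps7 and Mrpl42, which were lower (2 of 73, against 3.18% of all genes). Mrpl27, the counterpart of L27, which reaches the peptidyl transferase centre in bacteria, had 7.72, 8.50 and 8.73 in the pools of 100, 8.25, 8.05 and 8.25 in the pools of 200, and 9.60, 8.56 and 9.08 in the pools of 400 dendrites, with a difference of 0.90 ± 0.40 (SE, 95% interval 0.02 to 1.77, limma unadjusted p = 0.0457, adjusted p = 0.999). The values of the pools of 100 overlapped both other groups. Mrpl42, a mitochondrial protein, had 6.73, 6.52 and 6.42 in the pools of 100, 7.10, 7.25 and 7.18 in the pools of 200, and 6.73, 5.46 and 6.38 in the pools of 400 dendrites, with a difference of -0.98 ± 0.39 (SE, 95% interval -1.83 to -0.14, limma unadjusted p = 0.026, adjusted p = 0.999). It was highest at 200 dendrites, so that its values had no order by pool size. Without replicate 2 of the pools of 400 its difference was -0.62. The unadjusted p was above 0.05 in 3 of the 9 fits that leave out an array for Mrpl42, and in 6 for Mrpl27. Mrps18c differed by 0.87 ± 0.47 (SE, 95% interval -0.16 to 1.91, limma unadjusted p = 0.0899, adjusted p = 0.999). Mrpl20, the counterpart of L20, had 9.62, 9.12 and 9.11 in the pools of 100, 9.37, 9.65 and 10.23 in the pools of 200, and 8.30, 9.58 and 9.29 in the pools of 400 dendrites, with a difference of -0.69 ± 0.42 (SE, 95% interval -1.62 to 0.23, limma unadjusted p = 0.128, adjusted p = 0.999). Mrps7, the counterpart of S7, had 7.03, 8.99 and 8.29 in the pools of 100, 8.25, 8.004 and 8.74 in the pools of 200, and 7.39, 7.78 and 7.55 in the pools of 400 dendrites, with a difference of -0.76 ± 0.48 (SE, 95% interval -1.80 to 0.29, limma unadjusted p = 0.14, adjusted p = 0.999). Intervals of these 3 included 0. Without replicate 1 of the pools of 400, the difference was 0.40 for Mrps18c and -0.32 for Mrpl20, and both were the same when replicate 1 of the pools of 100 was left out too. Without replicate 3 of the pools of 200, Mrpl20 differed by -0.45. With the brightest probe set in place of the median, Mrps18c differed by 0.18. The pairwise comparisons share arrays, so the 2 entries of Mrpl43, Mrpl53 or Mrps35 are not independent of each other. In the slope over all 9 arrays, the unadjusted p was under 0.05 for Mrpl43, Mrpl53 and Mrps35 (3 of 73, against 2.73% of all genes). For Mrpl43 the slope was 1.001 ± 0.27 log2 units per doubling of the dendrites (SE, limma, adjusted p = 0.999).

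**Figure D5:**
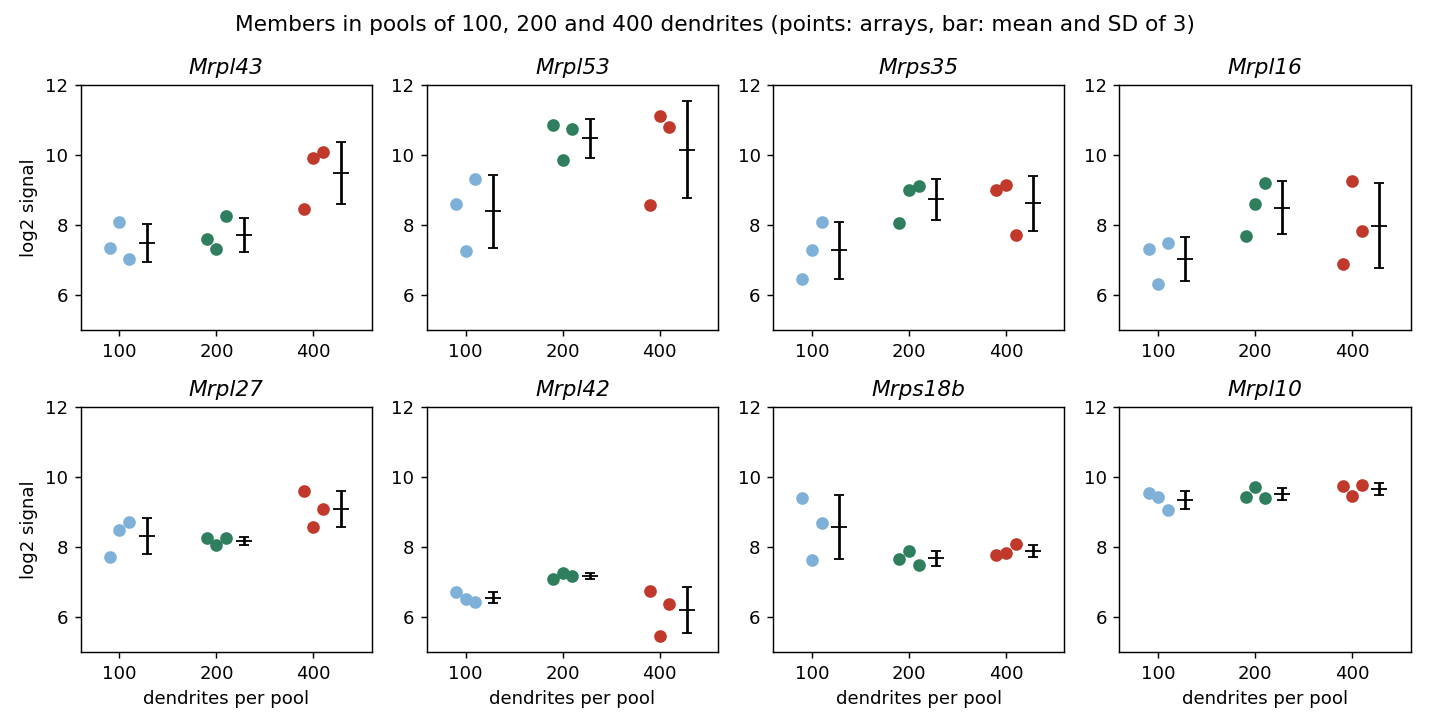
Log2 signal (y axis) of 8 members in pools of 100, 200 and 400 dendrites (x axis), with a point for each array and, beside them, the mean and SD of 3 arrays. The 3 pools of 400 of Mrpl43 lie above the other 6, and Mrpl42 is highest at 200. The probe set median of Mrpl10 stays within 9.06 to 9.79.

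The other genes of mitochondrial translation likewise held no call by adjusted p between 400 and 100 dendrites. Of the translation factors, 10 of 14 were higher and 4 lower, and the smallest p was that of Mtif2, the initiation factor that brings the initiator tRNA, with a difference of 1.35 ± 0.53 (SE, limma unadjusted p = 0.0256, adjusted p = 0.999). Of the synthetases 7 of 16 were higher, with Sars2 at -0.66 ± 0.33 (SE, limma unadjusted p = 0.0707, adjusted p = 0.999). Of the assembly factors 9 of 23 were higher, with the methyltransferase Mettl15 at -1.48 ± 0.71 (SE, limma unadjusted p = 0.0604, adjusted p = 0.999). Of the genes of mitochondrial transcription and replication 5 of 8 were higher, with Twnk at 0.43 ± 0.38 (SE, limma unadjusted p = 0.288, adjusted p = 0.999). Of the 5 other ribosomal proteins 1 was higher, with Gadd45gip1 at -0.69 ± 0.49 (SE, limma unadjusted p = 0.187, adjusted p = 0.999). Median differences were 0.08 for translation factors, -0.10 for synthetases, -0.12 for assembly factors, 0.09 for transcription and -0.35 for the 5 other ribosomal proteins. Over the same comparison, cytosolic ribosomal proteins had a median difference of 0.05 and nuclear genes for oxidative phosphorylation one of 0.14.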

How the data were processed

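Amplified RNA of dendrite pools was measured on 9 arrays, 3 each for 100, 200 and 400 dendrites. The values deposited by the authors are log2 signals of 31099 probe sets, made by them with RMA 2.0, which corrects background, equalises the arrays and summarises probes. Centring and scaling, which the methods also name, had not been applied to them and were run as an alternative. The 57 control probe sets were set aside. Of the other 31042, 20826 had a single gene in the array's annotation, 436 several and 9780 none. Symbols of 20758 were updated through Entrez IDs and 68 kept. No values were missing. An array value depends on probe affinity, and the number of arrays limits the precision.

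Genes were ranked by their median rank over 9 arrays. Pool sizes were compared with limma 3.58.1 (R 4.3.3), fitted to all 14217 genes and 9 arrays, with two-sided tests, p-values adjusted by Benjamini-Hochberg and calls at 0.05. Other steps used Python 3.11.15, numpy 2.4.6, pandas 2.3.3 and matplotlib 3.10.9. The script was tested on simulated data for 400 against 100 dendrites over 14217 genes: 47 of 50 genes changed by 4 log2 units were recovered, with 10 false calls. Genes of smaller changes were planted in the same data.

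Named in full were the 3 genes of smallest p in each direction per comparison, the 5 highest and 5 lowest of each subunit, the 3 of largest and of smallest SD, the 3 with the widest gap between probe sets, the Mrps18 relatives, and, of each other group, the 2 highest, the lowest and the one of smallest p between 400 and 100 dendrites. Genes shown outside this rule, for their promoters, their neighbours, their places in the ribosome or groups that did not overlap, were chosen after their values were seen. Members and lists were chosen with earlier results of these data known. Proteins of the same ribosome under other symbols were described as a list of their own.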

Additional observations from a re-analysis of the deposited data

How the results depend on the processing

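The 4 counts of members past an adjusted p of 0.05 were 0 under quantile normalization, the centring and scaling of the methods, the probe set of highest mean, the upper part of genes by mean signal, other variance settings, the replicate block and each array left out, and the 3 pairwise counts were 0 with the methods' t-test. Of 18 differences named by gene, none changed sign in limma or the alternatives, and the lowest adjusted p was 0.938. The 18 were picked by smallest p from the same arrays that the alternatives reuse, so a kept sign is no independent check. The labels do not say whether the replicate numbers pair the pools. Deviations of same-numbered arrays correlated at -0.189 to 0.0926, and those of differently numbered arrays at -0.191 to 0.218. No pairing was seen in these values, but with 3 arrays per pool size they cannot settle it. With the replicate block the unadjusted count was 3, 3, 2 and 3 for 400 against 100, 200 against 100, 400 against 200 and the slope, where it was 3 in each without the block. The unadjusted count for 400 against 100 came to 6 without replicate 1 of the pools of 400 and to 5 without replicate 3 of the pools of 100. For 400 against 200 it was 1 without replicate 2 or replicate 3 of the pools of 200. The slope gave 8 without replicate 1 of the pools of 400, 6 without replicate 3 of the pools of 100 and 1 without replicate 2 of them. With all 9 arrays, 342 of all 14217 genes passed for 400 against 100. Counts over all genes are not given here for the block or for a single array left out. These counts of members are therefore no result about the members. A setting chosen after seeing the data left out replicate 1 of the pools of 100 and replicate 1 of the pools of 400, which stand apart in the spike-in controls. The counts by adjusted p were again 0, and the unadjusted counts were 9 for 400 against 100, 6 for 200 against 100, 2 for 400 against 200 and 10 for the slope, where 675, 584, 478 and 759 of all 14217 genes passed. Members in the top 5% were again 3. Median differences of the members moved by less than the spread between replicates, from -0.02 to 0.15 for 400 against 100, 0.01 to 0.15 for 200 against 100 and -0.11 to 0.16 for 400 against 200 with an array left out.

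The count of members in the top 5%, 3, became 9 in the top 10%, 1 with the probe set of highest mean and 0 among the upper part of genes by mean signal. The last setting has fewer genes in its ranking. The median percentile, 59.7, became 53.4 with the probe set of highest mean and 34.0 among the upper part of genes, which keeps 48 members. With an array left out these were 3 and 58.9 to 61.3. What limits these results is 3 arrays per pool size and, for single genes, the probe sets.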
